A study of Bos taurus with 6 samples.

Results

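Regulators of G protein signalling (RGS proteins) bind the activated α subunit of a heterotrimeric G protein and speed its hydrolysis of GTP, which ends the signal of the receptor upstream. In the ovarian follicle the receptor for luteinizing hormone (LH) acts through such G proteins, and RGS2 is known as a gene that the ovulatory gonadotropin surge induces in granulosa cells. Other family members are better known from other cells, such as RGS1 from lymphocytes, RGS5 from pericytes and RGS10 from immune cells. The 9 genes described here, RGS1, RGS2, RGS3, RGS4, RGS5, RGS10, RGS14, RGS16 and RGS19, were taken by symbol from the platform annotation, among 15216 named genes on the array. All 9 had at least 1 probe, and together they had 13: 3 for RGS4, 2 each for RGS2 and RGS5, and 1 for each of the others.

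The samples were granulosa cells spun down, without a sort, from the fluid of the dominant follicle of 6 Hereford cows. The 3 aged cows (13, 110 and 126) were multiparous and the 3 young cows (11, 7 and 184) were nulliparous heifers. The protocols describe mother and daughter pairs, do not tie those to the arrays, and give no ages in years. Prostaglandin F2α and 25 mg of LH were given on day 6 to every cow, young or aged, and follicles were taken 24 h afterwards on day 7, so that no sample shows the state before LH. RNA went through linear amplification and was compared on 6 2-colour arrays in 3 fixed pairings, each of 1 aged with 1 young cow (13 with 11, 110 with 7, 126 with 184), and each pair was hybridised a second time with the dyes exchanged. Replicates are different animals, with n = 3 pairs. A ratio is log2(aged / young), the mean of both dye orientations. A level is the log2 signal of 1 cow after normalisation, with values near 8.3 at background, and it compares cows for the same probe only.

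Between 24.6% and 71.9% of probes per channel exceeded the negative control spots. The lowest share belonged to the Cy3 channel of aged cow 126, whose negative control spots spread most (SD 99.2 units). Of the 11 granulosa markers, inhibin α (INHA) lay between 14.87 and 15.16 in 5 cows and at 10.44 in young cow 11, where its dye orientations differed by 4.24 and only 1 of 2 channels was above background, while FOXL2 was above background in 1 of 12 channels. The summed signal of this list was 7279 units in young cow 11, against 78326 to 134890 in the other 5 cows. In those 5, INHA and SERPINE2 (14.97 to 15.23) lay near the top of the signal range, which limits comparison of their sums. In cow 11 the orientations of INHBA and SERPINE2 differed by 4.46 and 4.31 as well, so its sum is uncertain. The 11 epithelial markers summed to 124950 in young cow 11 and 129720 in young cow 7, against 5106 to 16681 in the others. EPCAM and KRT8 in cow 11 and KRT19 and PPL in cow 7 were near that top as well (15.00 to 15.38). The 11 leukocyte markers on the array reached a sum of 38706 in aged cow 126 and 4167 to 15840 elsewhere. In bulk samples, fewer cells of a type and less RNA per cell cannot be told apart.

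RGS2 and RGS19 differed widely between cows, RGS10 was highest in the pair of cows 126 and 184, RGS1 differed less between cows, RGS16 stayed close to background, and RGS3, RGS4, RGS5 and RGS14 were not measurable by the filter used. None of the 9 genes differed between aged and young cows past the threshold. Tested probes were those whose RNA channel in aged cows, in young cows or in both was brighter on all 6 arrays than the negative control mean plus 2 SD, which left 5 of the 9 RGS genes and 7436 of all 15216 (48.9%). By limma with Benjamini-Hochberg adjustment over 16242 probes, 0 of the 5 had an adjusted p under 0.05, as was the case for 0 of all tested genes (0%). At an unadjusted p under 0.05 there were again 0 of the 5, against 11.2% of all tested genes. Of the 5, only RGS2 was higher in aged cows in all 3 pairs (20.1% of tested genes were), and 0 were lower in all 3 pairs (17.6% of tested genes). The levels of the aged and young cows overlapped for all 5, whereas 10.3% of tested genes had all aged above all young cows and 6.8% had them all below.

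**Figure D1:**
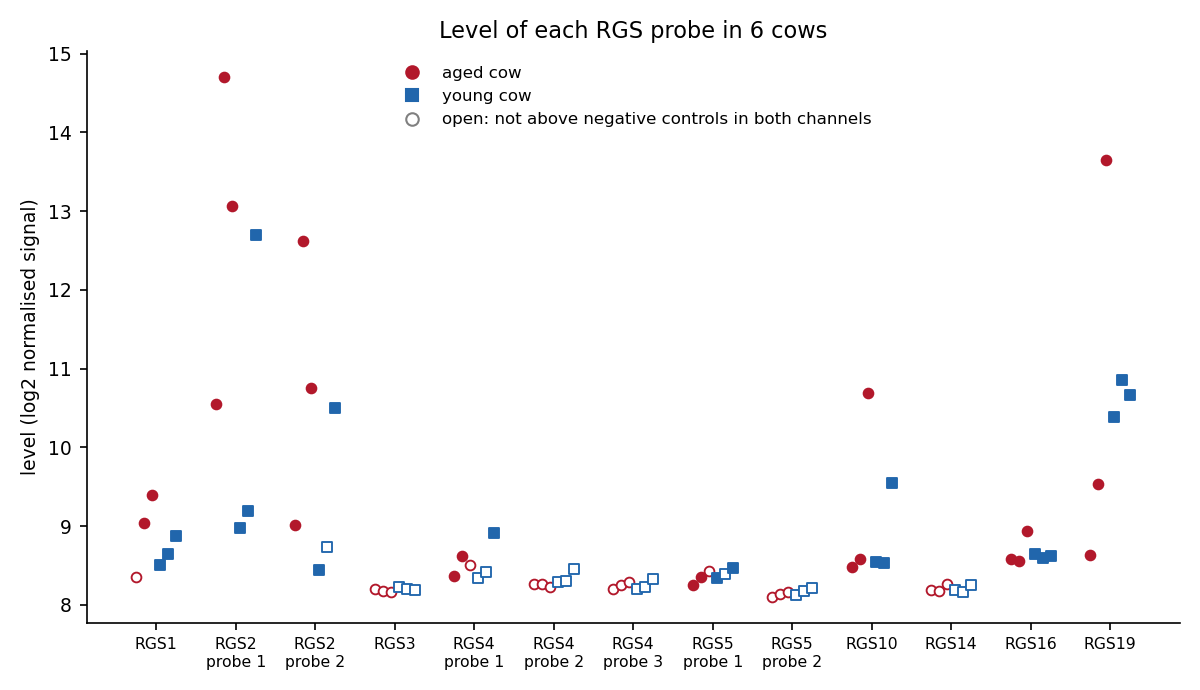
Level (log2 normalised signal) of the 13 RGS probes in each cow, with circles for aged and squares for young cows, each group in the order 13, 110, 126 and 11, 7, 184; an open symbol was not above the negative controls in both channels of that cow. Both RGS2 probes are highest in aged cow 110, RGS19 and RGS10 are highest in aged cow 126, and RGS3, RGS5 and RGS14 lie near 8.3 in every cow.

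RGS2, which acts mainly on the Gq class of α subunits, had the widest range of the family and was higher in the aged cow of each pair. Its brighter probe (EMBV3_30082) had levels of 10.55, 14.71 and 13.06 in aged cows 13, 110 and 126 and of 8.98, 9.19 and 12.70 in young cows 11, 7 and 184. Aged cow 110 was highest, the pair of cows 126 and 184 followed at similar levels, aged cow 13 lay between, and young cows 11 and 7 were near background, so the groups overlapped. The 2 dye orientations of a cow differed by at most 0.63. By these, every step in the order of cows was separated except that between young cows 7 (8.88 and 9.51) and 11 (8.88 and 9.08). The span of 5.73 log2 units, a 53.0-fold difference between the highest and the lowest cow, was exceeded by 0.74% of tested genes. In aged cow 110 the scanned signal was 30928 and 30309 units, where the brightest probes of those channels read 39752 and 40351, so its level is close to the top of the range.

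The aged cow of a pair thus exceeded the young one by amounts that were very unequal. The ratio was 1.58 for cows 13 and 11, 5.51 for cows 110 and 7 and 0.36 for cows 126 and 184, or 2.98-fold, 45.6-fold and 1.28-fold. It was above 0 on 6 of 6 arrays. The mean of 2.48 ± 2.69 (SD, n = 3), a 5.59-fold ratio with a limma standard error of 1.26, did not pass (adjusted p = 0.584 by limma). Flipping the signs of the 3 pair values in every way (exact, two-sided) gave p = 0.25, the smallest that 3 pairs allow. Without the pair of aged cow 110 the mean was 0.97.

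The other RGS2 probe (EMBV3_25468) ranked the 6 cows in the same order with smaller differences. Its levels were 9.02, 12.62 and 10.75 in aged cows 13, 110 and 126 and 8.44, 8.74 and 10.50 in young cows 11, 7 and 184. Again cow 110 was highest and cows 11 and 7 lowest. In young cow 7 it was above the negative controls in 0 of 2 channels, so that its ratio of 3.87 in the pair of cows 110 and 7 rests on a signal at background. The ratios of the other pairs were 0.58 and 0.25, and the mean was 1.57 ± 2.0 (SD, n = 3; adjusted p = 0.626 by limma). The RefSeq gene table lists, beside RGS2, another protein-coding entry (LOC513055) with RGS2 as a synonym, and the platform annotation does not say which of them each probe matches.

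**Figure D2:**
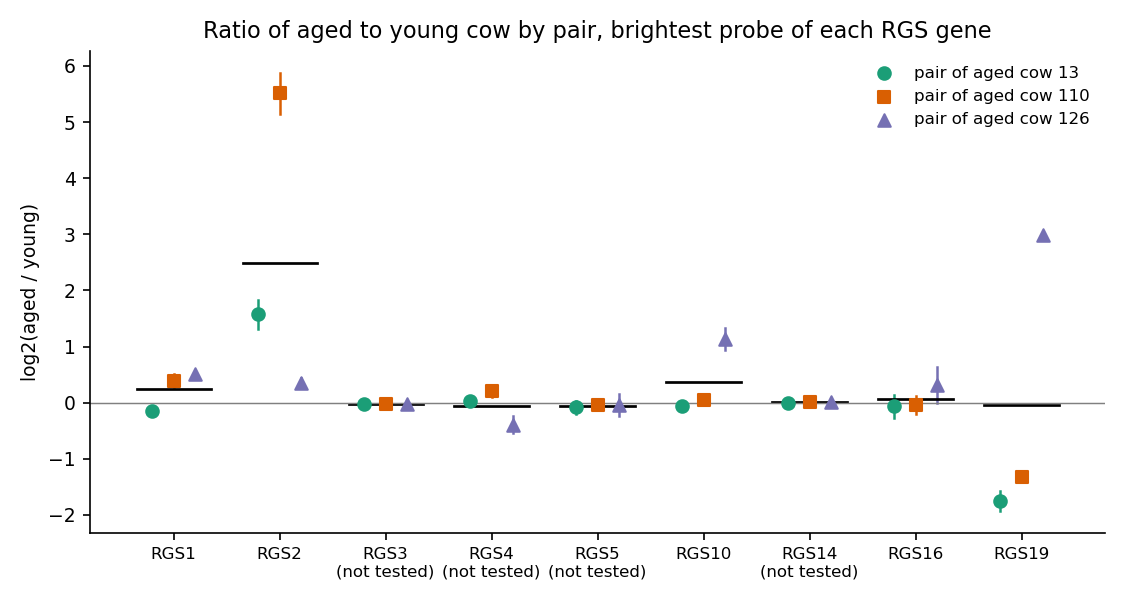
Log2 ratio of aged over young cow for the brightest probe of each RGS gene, with a symbol for the mean of each pair, a vertical line joining its 2 dye-swapped arrays and a horizontal line at the mean of the 3 pairs. RGS2 is above 0 in all pairs, with 5.51 in that of aged cow 110, while RGS19 is below 0 in the pairs of cows 13 (-1.75) and 110 (-1.32) and reaches 2.98 for cow 126.

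PTX3, PTGS2 and TNFAIP6, which the LH surge induces, were low in the same young cows as RGS2. ADAMTS1, also of the ovulation list, was lowest in cows 7 (9.38) and 11 (9.60) too, against 9.81 to 11.66 in the others. Some other genes of the list were not low there. PTX3, a protein of the matrix around the oocyte, had levels of 10.34, 15.02 and 13.80 in aged cows 13, 110 and 126 and 8.66, 9.04 and 13.39 in young cows 11, 7 and 184. By mean level, this is the order of RGS2. The step between cows 126 and 184 lay within their dye orientations, which differed by 0.59 and 0.54. So did the step between cows 7 and 11. In cow 7 the orientations of PTX3 differed by 0.87, with 1 of 2 channels above background. PTGS2, the inducible prostaglandin synthase, had levels of 8.84, 11.96 and 9.73 in the aged and 8.23, 8.63 and 9.73 in the young cows, highest in cow 110 as well, with a ratio of 1.31 ± 1.77 (SD, n = 3; adjusted p = 0.639 by limma), and it was above background in 0 of 2 channels in cows 11 and 7, whose order it therefore does not give. TNFAIP6, a stabiliser of that matrix, was at 14.99, 15.08 and 15.03 in the aged cows and at 8.90, 9.19 and 15.09 in the young cows, the value of cow 7 resting on orientations that differed by 2.20. The 4 high values lie near the top of the signal range, so that differences among those cows cannot be read from them. Some other genes of the list were highest in a young cow with low RGS2. BTC was highest in cows 11 (11.44) and 7 (11.33), SERPINA5 in cow 11 (15.09) and EGR1 in cow 7 (10.48). The progesterone receptor gene PGR had its highest mean level in cow 11 (10.61), where its dye orientations differed by 1.03. Its order against aged cows 110 (10.30) and 13 (10.20) is therefore not settled. LHCGR, the LH receptor itself, was not tested, being above background in 4 of 6 aged and 1 of 6 young channels, with levels of 9.27 in aged cow 13 and 8.30 to 8.42 in the other 5 cows.

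In the list of genes tied to LH and ovulation, 11 were tested and 0 passed. The aged cow was higher in all 3 pairs for 4 of them and lower in all 3 for 2 (20.1% and 17.6% of all tested genes), and the median ratio was 0.84 beside 0.06 over all tested genes. By pair the list's median was 0.56, 2.13 and -0.17 for aged cows 13, 110 and 126, and RGS2 was likewise largest in the pair of cow 110. The smallest p-values belonged to SERPINA5, a serpin (-1.67 ± 0.57, SD, n = 3), NR4A1, an early response nuclear receptor (1.71 ± 1.10), and BTC, an EGF-like growth factor (-2.01 ± 1.56), with adjusted p of 0.469, 0.475 and 0.511 by limma. Other probes of BTC gave -0.04 and -0.61, at mean log2 signals of 8.49 and 8.53 near background, and those of PTGS2 gave 0.05 and 0.41 at 8.19 and 8.31.

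Among all tested genes, the 5 whose profile over the 6 cows lay nearest to RGS2 were PTX3, STEAP1, GFPT2, SLC25A12 and IGF2. Nearness was the root mean square difference of levels, each centred on its gene's mean over the cows, and it was 0.43 for PTX3, 0.51 for STEAP1, a metalloreductase, and 0.57 for GFPT2, which feeds glucose into hexosamine synthesis. SLC25A12, a mitochondrial aspartate and glutamate carrier, was at 0.61, and IGF2, the growth factor, at 0.65. All 5 had their highest ratio in the pair of cow 110, between 3.68 and 5.98, which follows largely from choosing them by these same levels. In cow 110, PTX3 (15.02), GFPT2 (15.00) and IGF2 (14.97) lay near the top of the signal range, which limits the size of those ratios. In the pair of cow 126 the ratios split, with 0.40 for PTX3 and 1.47 for GFPT2 but -0.45 for STEAP1, -0.66 for SLC25A12 and -0.32 for IGF2. Other probes of IGF2 gave mean ratios of 0.61 and -0.01, and the other of SLC25A12 gave 0.05 near background.

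**Figure D3:**
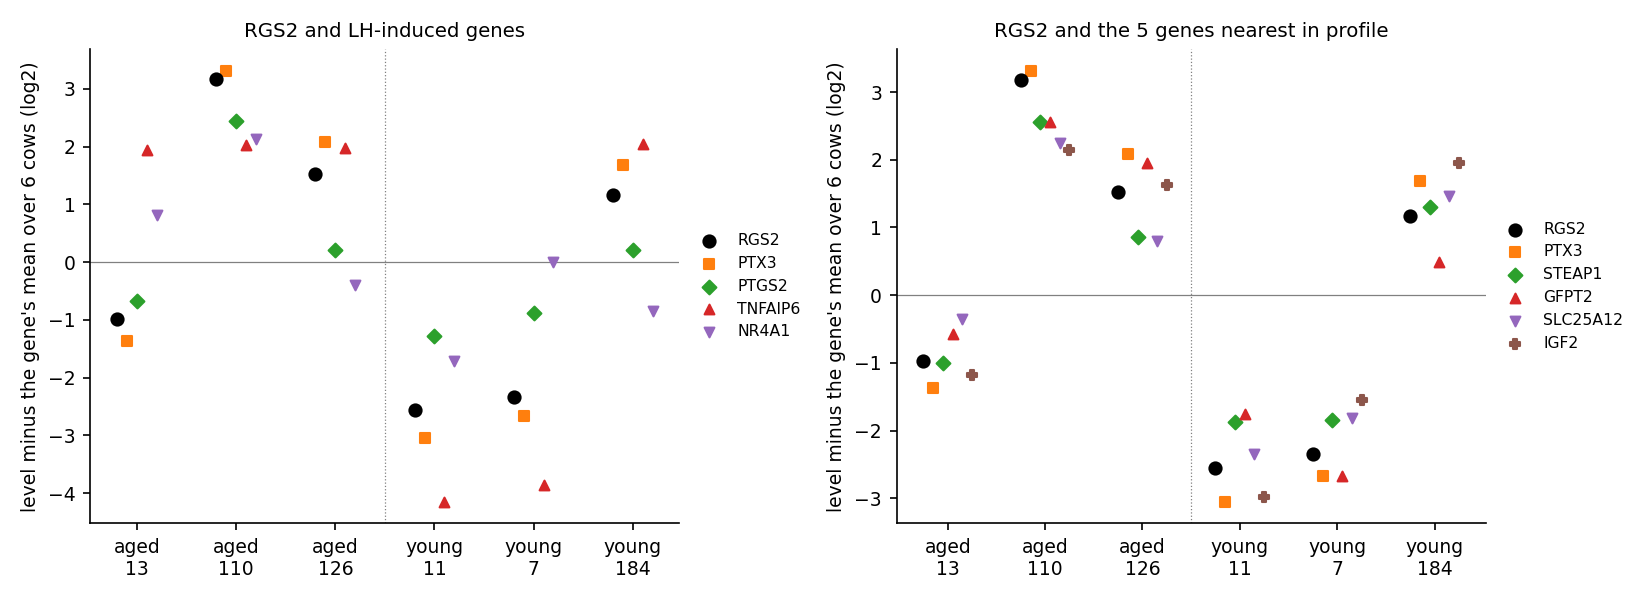
Level of RGS2 and of LH-induced genes (left) and of the 5 genes nearest in profile (right) in each cow, each gene drawn as the difference from its own mean over 6 cows (log2). RGS2, PTX3 and PTGS2 are highest in aged cow 110 and low in young cows 11 and 7, and TNFAIP6 lies near the top of the signal range in cows 13, 110, 126 and 184.

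Markers of other cells moved with RGS2 in part. Young cow 11, with the lowest RGS2, had the lowest granulosa sum (7279 units) and high epithelial markers, with EPCAM at 15.00. That granulosa sum is uncertain, as the dye orientations of INHA, INHBA and SERPINE2 in cow 11 differed by 4.24, 4.46 and 4.31. The median level of the granulosa markers was lowest in cow 11 too (8.44). Young cow 7 had high epithelial markers as well (EPCAM at 12.98). Its granulosa sum of 118530 was above those of cows 110 (101940), 126 (78326) and 184 (90651). The brightest markers in cow 7 were INHBA (15.40), INHA (15.06) and SERPINE2 (14.98), all near the top of the signal range. The inhibin subunit INHBA was at 11.46 to 11.96 in cows 110, 126 and 184, and at 15.065 in aged cow 13. By the median level of the same 11 markers, cow 7 (9.68) lay below cows 110 (11.46), 126 (10.93) and 184 (10.34), as it did for RGS2. Aged cow 13 had the highest granulosa sum, 134890, and also the highest median, 12.415. Its RGS2, at 10.55, was nevertheless below that of cows 110, 126 and 184, so neither measure gave the order of RGS2. CYP19A1, the oestradiol-forming aromatase, was at 13.02 in cow 13 and at 8.36 to 9.68 in the other 5 cows. The part of cell composition in the RGS2 ratios was not tested.

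RGS19, also called GAIP and first known as a partner of the inhibitory subunit Gαi3 in human cells, had opposite directions in different pairs. Its levels were 8.63, 9.53 and 13.64 in aged cows 13, 110 and 126 and 10.38, 10.86 and 10.66 in young cows 11, 7 and 184. The 3 young cows lay close together, with 1 aged cow far above them and the other 2 below. All neighbours in the order of cows were separated by more than their dye orientations, which differed by at most 0.22. The 32.3-fold span was exceeded by 1.28% of tested genes.

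In ratios, RGS19 was at -1.75 for cows 13 and 11, at -1.32 for cows 110 and 7 and at 2.98 for cows 126 and 184, which is 0.297-fold, 0.399-fold and 7.89-fold. The dye-swapped arrays of each pair had the same sign. The mean was -0.03 ± 2.62 (SD, n = 3; adjusted p = 0.992 by limma) and turned to 0.24 with median centring, a near-zero mean of 3 large differences of unlike sign. The pairs kept these signs with median centring, without background correction, with a smaller offset, with spot medians and with the authors' values, from -2.48 to -1.74 for cow 13, from -1.52 to -1.04 for cow 110 and from 2.92 to 3.51 for cow 126. A number in the names of the deposited scans was taken as that of the slide, which the labels do not state. By it, the arrays of cows 13 and 110 shared a slide and those of cow 126 lay on separate ones. If so, this pair and its slides cannot be told apart.

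The genes nearest to RGS19 over the 6 cows were FGD3, NAIP, IL8RB, CD53 and ICAM3. FGD3 is an exchange factor for Cdc42 (difference of 0.32), NAIP an inflammasome sensor (0.39), IL8RB the interleukin 8 receptor now named CXCR2 (0.41), CD53 a tetraspanin of leukocytes (0.44) and ICAM3 a leukocyte adhesion molecule (0.46). Each was lower in aged cows 13 and 110 and higher in aged cow 126 than in the partner cow, with ratios of 2.57 to 4.14 in the last pair. Having been chosen by these same levels, they share the pattern of RGS19 largely by selection. Another probe of CD53 gave -0.14, -0.18 and 1.08 in the 3 pairs, and another of IL8RB lay near background with a mean ratio of -0.03.

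RGS10, a small RGS protein prominent in microglia and other immune cells, was well above background level in the 2 cows of 1 pair. Its levels were 8.48, 8.58 and 10.69 in aged cows 13, 110 and 126 and 8.55, 8.54 and 9.55 in young cows 11, 7 and 184. Cow 126 was highest, cow 184 was next, and the other 4 cows lay between 8.48 and 8.58, near background. The ratios were -0.06, 0.05 and 1.14, or 2.21-fold in the pair of cow 126, and the mean of 0.38 ± 0.67 (SD, n = 3) did not pass (adjusted p = 0.704 by limma). The level spanned 2.20 log2 units, and 15.0% of tested genes spanned more. RGS2, RGS19 and RGS10 were the 3 of 5 tested RGS genes with a span of at least 2, which 18.8% of all tested genes had.

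The 5 genes nearest to RGS10 were S1PR1, a sphingosine-1-phosphate receptor of lymphocytes and endothelium (difference of 0.07), FCGR1A, a monocyte receptor for immunoglobulin G (0.12), PLA2G7, which degrades platelet activating factor (0.15), CHST12, a chondroitin sulphotransferase (0.18), and CD74, the MHC class II invariant chain (0.19). All 5 were highest in aged cow 126 and next in young cow 184. Their ratios in that pair lay between 0.99 and 1.54. Both follow largely from choosing the genes by these same levels. Other probes of PLA2G7 gave -0.07 and -0.01 near background.

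**Figure D4:**
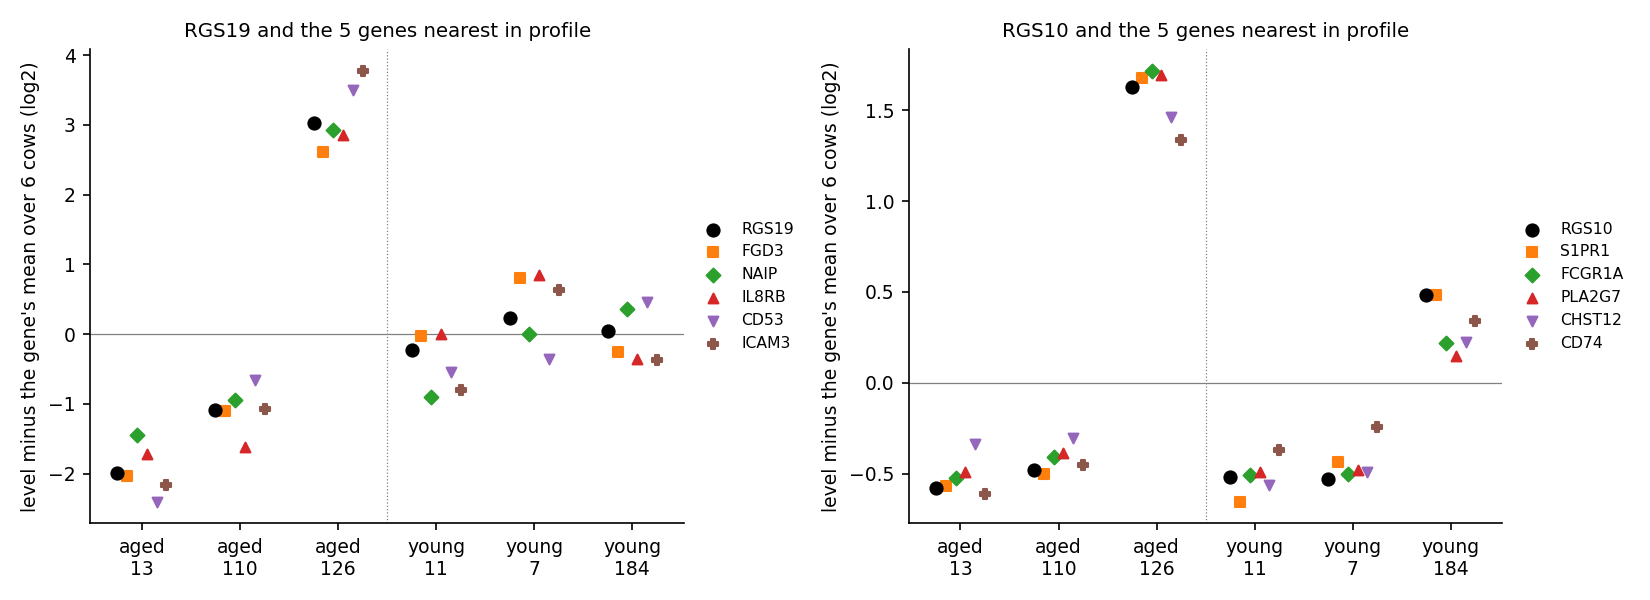
Level of RGS19 (left) and RGS10 (right) in each cow with the 5 genes nearest to each in profile, every gene drawn as the difference from its own mean over 6 cows (log2). Both are highest in aged cow 126, but RGS19 is higher in young cows 11 and 7 than in aged cows 13 and 110, where RGS10 shows no such step.

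Most leukocyte markers were highest in aged cow 126, which had the highest RGS19 and RGS10, but PTPRC, the general leukocyte marker CD45, was not. It was at 12.54 in cow 7, 12.32 in cow 184 and 12.03 in cow 126, and it was lower in the aged cow of all 3 pairs. Of the 11 on the array, 10 were above background in both channels of aged cow 126, 9 in young cow 184 and aged cow 110, 8 in young cows 11 and 7, and 6 in aged cow 13. TYROBP, a signalling adaptor of myeloid and natural killer cells, had a level of 13.87 in cow 126 and 10.61 in cow 184, against 8.25 to 9.37 in the other 4. The summed signal was 38706 in cow 126, 15840 in cow 184, 11236 in cow 7, 7133 in cow 110, 5162 in cow 11 and 4167 in cow 13. RGS10 exceeded 9 only in the first 2 of these. RGS19 went against the order of the sums in being higher in young cow 11 than in aged cow 110, and higher in young cow 7 (10.86) than in young cow 184 (10.66). ITGAM, a myeloid integrin, was above background in 0 of 12 channels. The part of leukocytes in the levels of RGS19 and RGS10 was not tested.

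**Figure D5:**
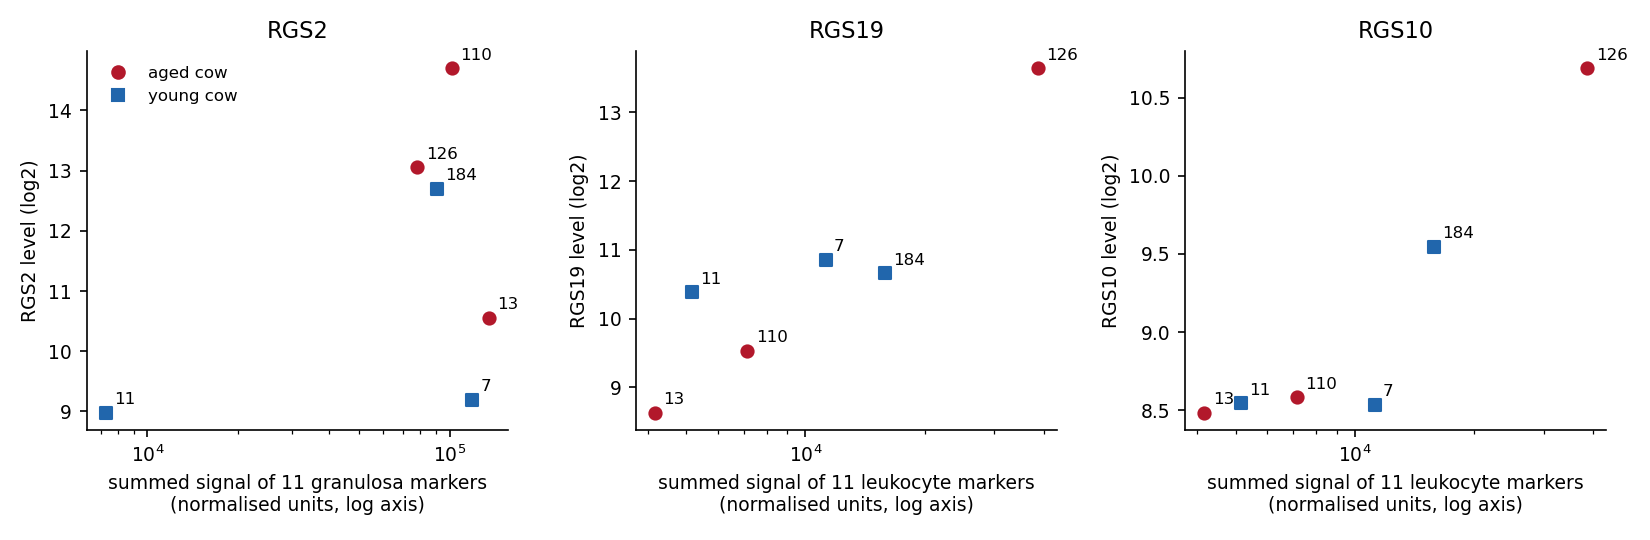
Level (log2) of RGS2, RGS19 and RGS10 in each cow against the summed normalised signal of 11 granulosa markers (left) or 11 leukocyte markers on the array (middle and right), on a log axis, with each point labelled by its cow. Cow 126 has the highest leukocyte sum (38706) with the highest RGS19 (13.64) and RGS10 (10.69). RGS2 is low in cow 7 (9.19) at a granulosa sum of 118530, and at 10.55 in cow 13, which has the highest granulosa sum (134890).

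RGS1, a regulator known from activated lymphocytes, had levels of 8.36, 9.04 and 9.39 in aged cows 13, 110 and 126 and 8.51, 8.65 and 8.88 in young cows 11, 7 and 184. Cow 126 was highest here too, cow 13 was lowest, and the groups overlapped. The span of 1.04 log2 units was near the median of 0.98 over tested genes, and of its steps from cow to cow only that between young cows 7 and 11 lay within the dye orientations. The ratios of -0.16, 0.39 and 0.51 gave a mean of 0.25 ± 0.36 (SD, n = 3; adjusted p = 0.670 by limma), at a scanned signal of 1.05 to 3.06 times the mean of the negative controls (median over 12 channels 1.31). RGS16, which acts on Gi and Gq subunits, lay between 8.56 and 8.65 in 5 cows and at 8.94 in aged cow 126. There its 2 dye orientations differed by 0.62, more than the span over all cows of 0.38, so that no order of cows can be read from it. Its mean ratio was 0.07 ± 0.21 (adjusted p = 0.824 by limma).

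The other 4 genes gave no tested value. RGS3 was above the negative controls in 0 of 12 channels, with levels of 8.17 to 8.23, and RGS14, a scaffold that also binds Ras-family GTPases, likewise in 0 of 12 channels, with levels of 8.17 to 8.27. The scanned signal of these 2 was at most 1.04 times the mean of the negative controls in any channel, so these probes did not detect the transcripts at this signal over background, which does not show that the transcripts were absent. The brightest RGS4 probe was above the negative controls in 8 of 12 channels, with levels of 8.37, 8.63 and 8.51 in the aged and 8.34, 8.42 and 8.91 in the young cows. Young cow 184 was highest, at up to 1.90 times the negative controls. The other 2 RGS4 probes were above them in 1 and 0 channels.

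RGS5, a marker of pericytes, had 1 probe above the negative controls in 10 of 12 channels but only up to 1.29 times their mean, with levels of 8.26 to 8.47 that overlapped between the ages. Its other probe was above them in 0 channels. In the same samples the 10 markers of fibroblasts, pericytes and smooth muscle summed to 6570 to 18945 units and the 7 endothelial markers to 2363 to 2515. PDGFRB, the pericyte receptor, was above background in 3 of 12 channels, while ACTA2, DES, COL1A2 and COL3A1 were in 12. Of the endothelial genes, PECAM1 and KDR were above it in 0 channels, TIE1 in 1, CDH5 in 8, VWF in 9 and EGFL7 and ROBO4 in 11, with levels of at most 8.84. Ratios of the brightest probes of the 4 untested genes had means between -0.06 and 0.01.

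Most of the rest of the RGS family was not tested. Of 12 other RGS genes listed, 10 had a probe and 3 a brightest probe that was tested, RGS9, RGS12 and RGS20, with mean ratios of -0.04, -0.28 and -0.20 and adjusted p of 0.847, 0.706 and 0.596 by limma. RGS20 was lower in the aged cow of all 3 pairs (-0.03, -0.18 and -0.39). RGS18, known from platelets and leukocytes, had a probe at 10.55 in cow 126, at 9.77 in cow 184 and at 8.28 to 8.66 in the other 4 cows. It failed the filter with 8 of 12 channels above background, and its other, dimmer probe, which was tested, lay between 8.68 and 8.95 in all cows. RGS18 was named after its values were seen.

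Genes of the G protein pathway around RGS proteins were counted in 6 lists, and none of them passed. Of 94 genes listed, 90 were on the array and 39 were tested. Among these, 7 had the aged cow higher and 7 had it lower in all 3 pairs, close to the 20.1% and 17.6% of all tested genes, 0 had an adjusted p under 0.05, and the median ratio was 0.08 beside 0.06 over all tested genes. The counts per list that follow stand beside those same shares, and with 4 to 9 tested genes a list none is read as a difference from them.

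Among the α subunits of G proteins, 6 were tested, of which 1 was higher and 1 lower in all pairs (median 0.01). GNAI3, the Gαi3 subunit, had levels of 10.95, 11.02 and 11.19 in aged cows 13, 110 and 126 and 10.47, 10.25 and 10.70 in young cows 11, 7 and 184. All aged cows were above all young cows with this probe, at a ratio of 0.58 ± 0.17 (SD, n = 3; adjusted p = 0.469 by limma). Another GNAI3 probe of similar brightness gave -0.05 ± 0.07, so the direction for this gene was not settled. GNA13 was at -0.49 ± 0.95 and GNA11 at -0.07 ± 0.06.

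Of 6 tested β and γ subunits, 3 had positive and 0 had negative ratios in every pair, beside 20.1% and 17.6% of all tested genes, and their median was 0.49. GNG5 was at 0.93 ± 0.45 (SD, n = 3), GNB1 at 0.44 ± 0.30 and GNG3 at 0.26 ± 0.22, with adjusted p of 0.469, 0.506 and 0.557 by limma. Another GNB1 probe that was tested gave -0.06, and an untested one gave 0.38 with all aged above all young cows. Of 6 tested receptor kinases and arrestins, which switch off the receptors, 1 was higher and 0 lower in all pairs (median 0.14). GRK2 was at 0.11 ± 0.16, GRK5 at 0.16 ± 0.30 and GRK4 at 0.18 ± 0.73.

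In the cyclic AMP arm, which carries the LH signal through Gs, 1 of 8 tested genes was higher and 3 were lower in all pairs (20.1% and 17.6% of all tested genes), with a median of 0.03. The adenylyl cyclases ADCY5 and ADCY6 were at -1.02 ± 0.43 and -1.31 ± 0.75 (SD, n = 3) and the phosphodiesterase PDE8A at 0.91 ± 0.50, each with an adjusted p of 0.469 by limma. ADCY6 had levels of 13.31, 13.48 and 12.81 in the aged and 13.87, 14.80 and 14.87 in the young cows, which did not overlap. Other probes of ADCY6 gave -0.03 and 0.13 and those of PDE8A -0.06, -0.04 and 0.02, all near background.

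In the Gq arm, on which RGS2 acts, 0 of 4 tested genes were higher or lower in all pairs (median -0.11). ITPR1, the calcium channel opened by inositol trisphosphate, had pair ratios of 2.37 (cow 13), 2.80 (cow 110) and -0.89 (cow 126) (1.43 ± 2.02, SD, n = 3; adjusted p = 0.649 by limma). PRKCD was at -1.75, -1.08 and 0.96 and PLCB3 at -0.23 ± 0.62, where ignored spots left 1 array each for the pairs of cows 110 and 126. PRKCD, a protein kinase C, thus had the signs of RGS19 in all pairs. So did PRKCB in the same list (-0.02, -0.05 and 0.10). In the other pathway lists, the tested genes GNA13, GNG7, GRK1, ARRB1, ADCY7, PTGER4, ADORA2A and ADORA2B did as well. The signs of PRKCB are not settled, because its dye orientations differed by up to 0.25 in a cow. The same holds for GRK1, and for ADORA2A in the pair of cow 126 (0.01). The share of all tested genes with these signs was not counted.

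Of 9 tested receptors, 1 was higher and 3 were lower in all pairs (20.1% and 17.6% of all tested genes), at a median of -0.15. S1PR2, a receptor for sphingosine-1-phosphate, was at -1.18 ± 0.53 (SD, n = 3), the thrombin receptor F2R at 0.63 ± 0.44 and the adenosine receptor ADORA2A at -0.20 ± 0.20, with adjusted p of 0.469, 0.493 and 0.613 by limma. The other F2R probe gave 0.20 near background.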

How the data were processed

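The authors deposited scanner files that hold linear intensity values, not normalised: per the file headers, a mean and a median for 45220 spots and for the local background around them in the Cy5 and Cy3 channels, with a mark for ignored spots (42 to 113 per array, none of them an RGS probe). The table of processed values that they deposited is in log2 units. Limma is named in the submitters' processing notes, and their background correction and filter are not given in the sources used here. The 6 columns of that table ran as log2(aged / young), and 0 other value columns were present. Against the scanner values, r lay between 0.849 and 0.95 over the 16242 tested probes.

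Spot means were corrected by normexp (offset 50) in limma 3.58.1 (R 4.3.3) and normalised by loess within each array. Control and ignored spots had weight 0. Ratios were turned to log2(aged / young), dye swaps were averaged, and lmFit and eBayes estimated the mean of 3 pair values (two-sided, Benjamini-Hochberg over 16242 of 43794 probes, threshold 0.05). The cow pair is in each ratio by construction. Levels are channel signals after loess and Aquantile. The filter used 153 negative control spots. The number of cow pairs limits the precision.

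Of 43794 probes, 21790 have 1 symbol, 0 several and 22004 none here. Of 15229 symbols, 14114 stood in the RefSeq table (assembly ARS-UCD2.0) and 982 were updated through a synonym. A gene is represented by its brightest probe. Coordinates are left out, the annotation giving no genome build. The rule for named genes took all RGS members, up to 3 genes per list by smallest p, LHCGR, PTGS2, PTX3 and TNFAIP6, and the 5 nearest profiles for members spanning at least 2 log2 units. Markers, other probes and further list genes, such as ADAMTS1 and PRKCB, were named after their values were seen. Members and lists were chosen with earlier results of these data known. Alternatives covered background, normalisation, spot statistic, filter, the authors' values, pairing, the slide inferred from scan names, dye orientation and each pair left out.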

Additional observations from a re-analysis of the deposited data

Results flagged for a closer look

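Of the RGS probes outside the tested set, 3 gave signal above the negative control spots in single channels. The brightest RGS4 probe did so in 8 of 12 channels, another RGS4 probe in 1, in young cow 184, and 1 RGS5 probe in 10. Without the array of aged cow 126 in Cy3, whose negative controls spread most, RGS4 and RGS5 entered the test with adjusted p of 0.846 and 0.965 by limma.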

How the results depend on the processing

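All 16 alternatives gave 0 probes and 0 RGS genes past the threshold, among them the fit with no replicate block (0) and the fit with the pair as a random replicate block (0). One of them, leaving out the array with aged cow 126 in Cy3, was added after the data were examined. RGS2 stayed above 0 in all 17 alternatives that included its other probe (0.97 to 3.54, adjusted p between 0.383 and 0.994), and RGS1 in all 16 (0.12 to 0.45). For RGS2 this sign was largely given beforehand. Its ratio was above 0 on 6 of 6 arrays, so fits on part of the arrays could not turn it. The alternatives that change only the filter or the pairing reuse the same ratios. With 1 pair left out, RGS10 ranged from -0.0062 (without cow 126) to 0.596 and RGS16 from -0.052 to 0.139 (each highest without cow 13). RGS16 turned to -0.16 with aged cows in Cy5 only, again to -0.052 without the pair of cow 126, and to -0.037 without that cow's Cy3 array. RGS19 turned to 0.24 with median centring, 0.89 under a random block by the inferred slide and 0.065 with aged cows in Cy5 only. It was 0.83 without the pair of cow 13 and 0.61 without that of cow 110. Without that of cow 126 it lay at -1.54, the value within the slide inferred from the scan names. The cause was not tested, beyond the smaller number of pairs in those that leave one out. Median centring moved the median of all tested genes from 0.06 to 0.16, with 0.29 in the pair of cow 126. The share of probes at an unadjusted p under 0.05 that were higher was 52.9%, against 73.9% with median centring and 35.2% to 74.4% when a pair was left out. Signals near background limit RGS1, RGS3, RGS4, RGS5, RGS14 and RGS16.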
